A study of Mus musculus with 9 samples.

Results

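The genes described here are 10 immediate-early transcription factor genes of the AP-1 and Egr families in mouse glioblastoma: Fos, Fosb, Fosl1, Fosl2, Jun, Junb, Jund, Egr1, Egr2 and Atf3. They were taken by name from the 46517 genes in the count files, and all 10 had enough counts to be tested. Their RNA was measured in 9 bulk RNA-seq libraries of primary glioblastoma tissue from mice of a mixed strain background. The study set tumours of 3 mouse models that stand for different cells of origin beside each other, with 3 libraries each for Synapsin-cre, Nestin-creERT2 and NG2-creERTM. Synapsin-cre is named for a neuronal promoter, Nestin-creERT2 for a neural progenitor promoter joined to a tamoxifen-inducible Cre, and NG2-creERTM for a promoter active in oligodendrocyte precursors and pericytes joined to another inducible Cre. The labels used here do not name the recombined alleles that all the tumours carry, the animals' age or any treatment, and no normal brain was included. They also do not say whether libraries of a model came from separate animals, so the p-values below measure the spread between these libraries, which may be technical.

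Immediate-early genes are switched on within minutes of a stimulus such as a growth factor, calcium entry or cell stress, without new protein synthesis. Their promoters are held ready by factors such as SRF with its ternary complex partners and CREB, which are activated by MAP kinases. The proteins of the Fos family pair with those of the Jun family to form AP-1, which binds a short palindromic site in enhancers of genes for proliferation, invasion and matrix turnover. Egr1 and Egr2 are zinc finger proteins that bind a GC-rich site, and Atf3 is a stress-induced bZIP protein that can pair with Jun proteins. In the brain the same genes are also switched on by neuronal firing.

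Promoters are given for 4 genes of the 3 pairs that varied most closely together among the tumours, which were Junb with Atf3, Fos with Jun and Egr1 with Egr2. They are the 250 bases before the start in the RefSeq table for GRCm38.p6, read on the gene's strand. Capitals mark matches, on either strand, to the core of the cyclic AMP response element that CREB and ATF proteins bind (TGACG) or to the CArG box, the site of SRF.
Fos, chr12:85473640-85473889, plus strand: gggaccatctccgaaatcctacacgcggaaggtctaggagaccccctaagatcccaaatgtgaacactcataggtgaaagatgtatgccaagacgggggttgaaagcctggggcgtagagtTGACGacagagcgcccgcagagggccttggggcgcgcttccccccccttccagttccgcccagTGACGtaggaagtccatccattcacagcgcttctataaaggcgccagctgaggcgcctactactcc
Jun, chr4:95052223-95052472, minus strand: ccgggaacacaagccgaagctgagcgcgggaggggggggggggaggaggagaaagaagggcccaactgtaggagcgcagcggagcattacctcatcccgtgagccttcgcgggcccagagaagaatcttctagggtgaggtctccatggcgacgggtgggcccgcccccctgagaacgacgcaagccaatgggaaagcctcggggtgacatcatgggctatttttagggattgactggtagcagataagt
Junb, chr8:84978749-84978998, minus strand: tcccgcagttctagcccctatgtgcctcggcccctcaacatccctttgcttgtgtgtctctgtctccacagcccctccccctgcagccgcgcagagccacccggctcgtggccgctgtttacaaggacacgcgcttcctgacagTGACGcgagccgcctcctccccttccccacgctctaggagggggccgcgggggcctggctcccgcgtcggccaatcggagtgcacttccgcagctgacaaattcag
Egr2, chr10:67537619-67537868, plus strand: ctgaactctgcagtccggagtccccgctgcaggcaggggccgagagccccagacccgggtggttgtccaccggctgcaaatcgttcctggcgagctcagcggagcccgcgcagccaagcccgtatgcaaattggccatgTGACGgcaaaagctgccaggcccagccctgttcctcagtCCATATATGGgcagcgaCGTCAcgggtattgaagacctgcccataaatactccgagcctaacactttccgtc
The Fos window held 2 CREB-type cores, at 129 to 125 and 66 to 62 bases before the start, and the Junb window held 1, at 106 to 102 bases. The Egr2 window is 1 of 5 in the table, lies inside the gene's longest annotated model and is shown for its matches, a CArG box at 72 to 63 bases with a CREB-type core on either side of it. The window at the start of that longest model held no match, another held a CArG box only, and the remaining 2 overlap the one shown and held the same matches. The Jun window held no match to these letters, to the AP-1 site TGANTCA or to the Egr sites GCGTGGGCG and GCGGGGGCG, and neither did that of Jund, which lies upstream of the annotated Jund gene and does not reach its start. Variants of these letters were not searched for, such as tgacatca, which the Jun window holds. The absence of a match is thus not the absence of any related site. The GC-rich Egr site GCGGGGGCG was present in the windows of Fosb and Fosl2, and a CREB-type core in those of Fosb, at 60 to 56 bases, and Atf3, at 7 to 3 bases. Of 32851 windows of the same length, 17.8% held the CREB-type core, 1.47% a CArG box, 6.75% the AP-1 site and 3.06% either Egr site. These matches describe letters in a window and do not show binding. The serum response element for which Fos is known lies further upstream than this window.

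In the GENCODE vM21 annotation of GRCm38 all 10 are protein-coding genes on 9 chromosomes: Fos at chr12:85473890-85477273, Fosb at chr7:19302696-19310051, Fosl1 at chr19:5447547-5455946, Fosl2 at chr5:32135801-32157842, Jun at chr4:95049034-95052222, Junb at chr8:84974484-84978718, Jund at chr8:70698949-70700616, Egr1 at chr18:34859823-34864984, Egr2 at chr10:67535475-67542188 and Atf3 at chr1:191170296-191218039. Counts are of reads over their exons on the strand with most reads, without those that fall on several genes. All 10 were expressed in every library, at levels far apart. Per kilobase of merged exon, which makes levels of different genes comparable, Jund was most often the highest, with a median rank of 1 over the 9 libraries, followed by Jun at 2, Fos at 3, Egr1 at 4 and Junb at 5. Fosl2, Atf3 and Egr2 followed at median ranks of 6, 7 and 8, and Fosb and Fosl1 shared the lowest median rank of 9. Neighbours in this order changed places between libraries: Jund, Jun and Fos each ranked first in some library. Junb stayed between ranks 4 and 5, and Fosb at 9 or 10.

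The library Synapsin-cre replicate 1 stands apart from the rest and touches each result below. Counts in genes ranged from 23557398, in that library, to 41099967, with a median of 34742585. Its Spearman correlation with the others was 0.778 to 0.884, against 0.891 to 0.957 among the other 28 pairs. It held 6398 CPM (counts scaled to a common library size with TMM factors) of 8 neuron markers in sum against 43.1 to 781 in the others, with all 8 at their highest there, and 70.7 CPM of 6 dividing-cell markers against 885 to 1930. Glial markers of the tumours' label were present in every library, with sums of 1982 to 7567 CPM for 8 oligodendrocyte-lineage markers and 298 to 7815 for 7 astrocyte markers. In bulk tissue, fewer cells of a type and less RNA per cell cannot be told apart.

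Fos, the founding member of its family, varied widely between libraries. It stood at 56.4, 463 and 438 CPM in Synapsin-cre replicates 1, 2 and 3, at 107, 22.0 and 24.9 in Nestin-creERT2, and at 139, 262 and 189 in NG2-creERTM. Every NG2-creERTM library was thus above every Nestin-creERT2 library, while Synapsin-cre replicate 1 lay within the Nestin-creERT2 range. The highest library exceeded the lowest 21.0-fold, close to the 20.7-fold of Fosb. Egr1, a growth-factor response gene, ran a similar course with a smaller range of 8.39-fold. It stood at 78.9, 497 and 265 CPM in Synapsin-cre, at 138, 59.3 and 81.0 in Nestin-creERT2 and at 320.2, 134 and 280.1 in NG2-creERTM. Its levels in NG2-creERTM and Nestin-creERT2 overlapped through a narrow margin, 134 against 138 CPM.

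Jun and Jund, the main partners of the Fos proteins, moved least. Jun stood at 198, 482 and 514 CPM in Synapsin-cre, at 236, 109 and 150.5 in Nestin-creERT2 and at 242, 231 and 267 in NG2-creERTM. The 3 NG2-creERTM libraries lay within 1.15-fold of each other, and Synapsin-cre replicates 2 and 3 were above every other library. Jund, which is expressed in most cells without induction, stood at 127, 230.3 and 245 CPM in Synapsin-cre, at 136, 153 and 133 in Nestin-creERT2 and at 110, 154 and 159 in NG2-creERTM. Its whole range was 2.23-fold, and again Synapsin-cre replicates 2 and 3 were above the other 7. The biological coefficient of variation in edgeR, the spread between libraries of a model beyond counting error, was 0.331 for Jund and 0.401 for Jun, below the 0.452 and 0.463 fitted for genes of their abundance. For Fos it was 0.672 against 0.455, and for Egr2 0.726 against 0.558. Fosl1 (0.749) and Fosb (0.709) were also above Fos, beside 0.763 and 0.661 fitted at their lower abundance.

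Junb, which often tempers Jun activity, stood at 52.4, 81.4 and 149.6 CPM in Synapsin-cre, at 99.4, 19.4 and 20.0 in Nestin-creERT2 and at 37.2, 72.0 and 72.4 in NG2-creERTM. Atf3, scarcer, stood at 11.3, 29.9 and 51.2 CPM in Synapsin-cre, at 24.6, 7.18 and 4.36 in Nestin-creERT2 and at 11.4, 24.3 and 34.6 in NG2-creERTM. Both genes were at their lowest in Nestin-creERT2 replicates 2 and 3, and at 99.4 and 24.6 CPM in replicate 1 of that model. Egr2, the Schwann cell myelination factor, stood at 3.76, 58.7 and 31.4 CPM in Synapsin-cre, at 20.3, 7.73 and 6.91 in Nestin-creERT2 and at 22.4, 16.0 and 50.1 in NG2-creERTM. The lowest Egr2 level of all 9 libraries was thus in Synapsin-cre replicate 1 and the highest in replicate 2 of the same model. Summed CPM of 7 Schwann cell markers was lowest in Nestin-creERT2, with 8.56 to 74.3 there, 210.1 to 783 in Synapsin-cre and 217 to 1666 in NG2-creERTM. Their part in the Egr2 levels was not tested.

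Fosl2, a Fos family member that outlasts the first wave of induction, stood at 52.5, 121 and 126 CPM in Synapsin-cre, at 152, 39.0 and 27.9 in Nestin-creERT2 and at 83.9, 81.5 and 45.5 in NG2-creERTM. Fosl1, a member linked to mesenchymal and invasive states, was scarce, at 6.28, 4.30 and 7.07 CPM in Synapsin-cre, 10.3, 2.27 and 0.715 in Nestin-creERT2 and 1.53, 1.99 and 3.42 in NG2-creERTM. For both genes the single highest library of the 9 was Nestin-creERT2 replicate 1, and the lowest was replicate 3 of the same model. Fosb, which neurons accumulate on repeated stimulation, stood at 10.9, 19.8 and 25.5 CPM in Synapsin-cre, 12.6, 4.49 and 4.81 in Nestin-creERT2 and 15.0, 1.23 and 5.93 in NG2-creERTM. Its lowest level was in NG2-creERTM replicate 2, where Fos was at 262 CPM, above the other 2 libraries of that model.

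**Figure D1:**
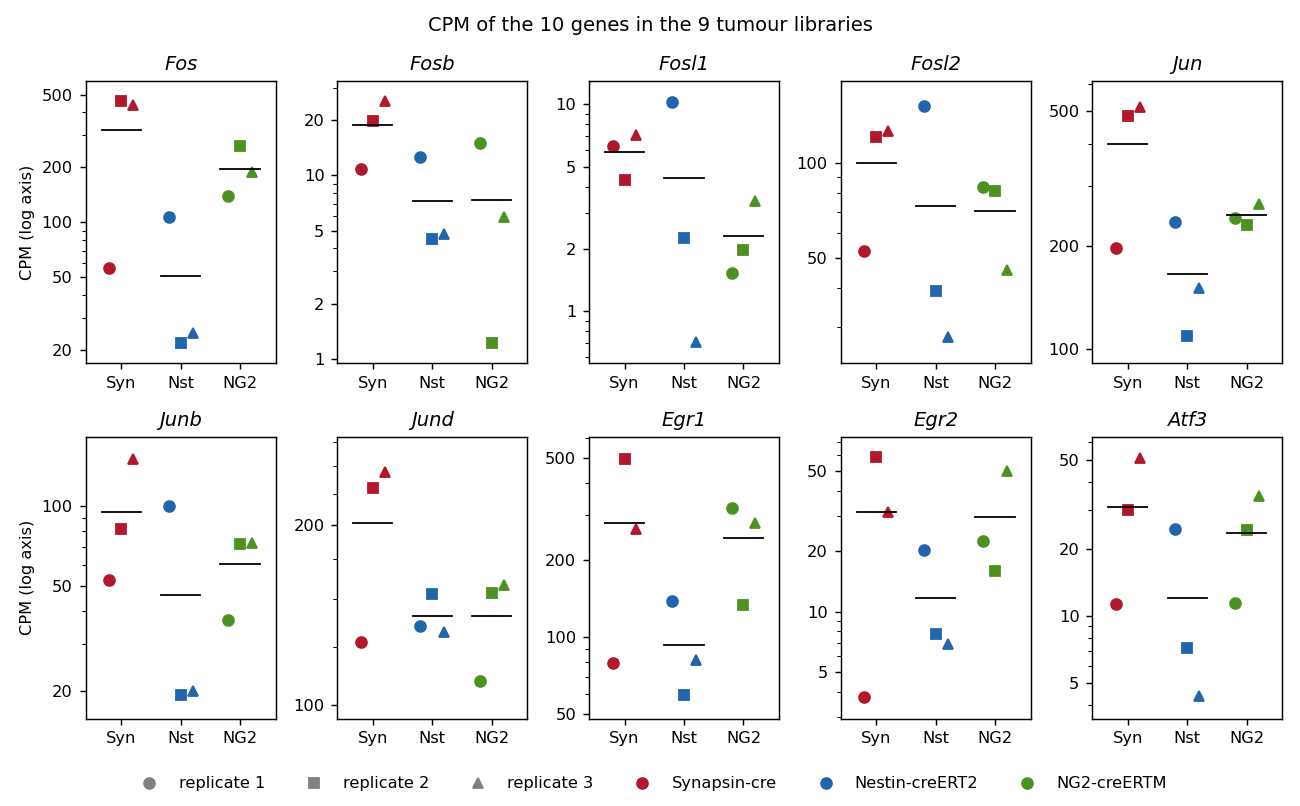
CPM of each of the 10 genes (log axis, own scale for each gene) in the 3 libraries of Synapsin-cre (Syn), Nestin-creERT2 (Nst) and NG2-creERTM (NG2). Points are libraries, marked by replicate, and lines are the means of 3. Synapsin-cre replicates 2 and 3 sit at or near the top of most panels, and Nestin-creERT2 replicates 2 and 3 near the bottom.

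Seen by library, the high and low levels of the 10 genes fell on the same few libraries. Of the 10, 8 had their highest level in Synapsin-cre replicate 2 or 3, and 7 their lowest in Nestin-creERT2 replicate 2 or 3. Nestin-creERT2 replicate 3 was among the lowest 3 libraries for all 10 genes, and replicate 2 for 8. Synapsin-cre replicates 2 and 3 were each among the highest 3 libraries for 9 genes. Within models, Synapsin-cre replicate 1 was below replicates 2 and 3 for 9 of the 10, the exception being Fosl1. Nestin-creERT2 replicate 1 was above replicates 2 and 3 for 9, the exception being Jund. No share over all genes stands beside these counts, so they describe the 10 genes and not a trait particular to them. In Synapsin-cre replicates 2 and 3, 8 markers of microglia and macrophages were scarce, with a sum of 131 and 73.2 CPM against 348 to 772 in the other 7 libraries. Markers of T cells summed to at most 0.748 CPM and those of neutrophils to at most 9.80. Whether these cell types have a part in the levels was not tested.

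The proportions within the Fos family also differed. Fos itself made up 61.5 to 72.6% of the family's CPM per kilobase in Nestin-creERT2, against 83.3 to 92.1% in NG2-creERTM and 70.0 to 91.7% in Synapsin-cre. Fosl2 held 19.7 to 26.4% in Nestin-creERT2, more than in any library of NG2-creERTM (5.37 to 12.2%) or Synapsin-cre (5.84 to 15.8%). The low Fos share extended to Nestin-creERT2 replicate 1, at 66.5%, although its Fos level of 107 CPM was well above those of replicates 2 and 3. In NG2-creERTM against Nestin-creERT2 the mean Fos share was 89.0% ± 4.94 against 66.9% ± 5.56 (SD, n = 3 each; exact permutation test, 2-sided, p = 0.1). That is the smallest p that 3 against 3 can give, and it was 0.42 after adjustment over the 21 comparisons of family shares. In the Jun family, Jund made up 58.7 and 68.3% in Nestin-creERT2 replicates 3 and 2 and 39.4 to 47.3% in the other 7 libraries.

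**Figure D2:**
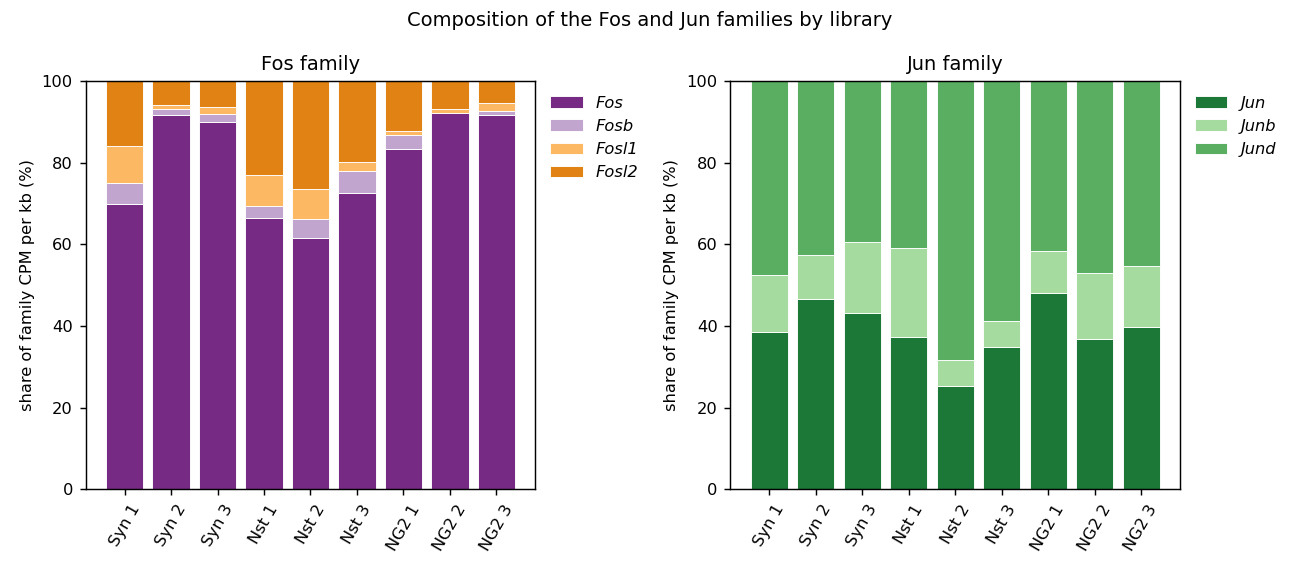
Share of each gene in the summed CPM per kilobase (%) of the Fos family (left) and the Jun family (right), with 1 bar per library and Syn, Nst and NG2 for Synapsin-cre, Nestin-creERT2 and NG2-creERTM. Fos takes 61.5 to 72.6% in the Nestin-creERT2 bars and 83.3 to 92.1% in the NG2-creERTM bars.

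The first comparison asked how tumours of NG2-creERTM differ from those of Nestin-creERT2. Fos was higher in NG2-creERTM by 1.94 on the log2 scale (SE 0.83), with 197 ± 62.1 CPM against 51.2 ± 48.1 (SD, n = 3 each). Egr1 was higher by 1.40 (SE 0.64), Egr2 by 1.34 (SE 0.87) and Atf3 by 0.96 (SE 0.76). Jund and Fosb showed differences of 0.00 (SE 0.31) and 0.01 (SE 0.81), and Fosl1 was lower by 0.94 (SE 0.86). None of the 10 genes passed the edgeR quasi-likelihood test at an adjusted p of 0.05, and neither did any of the 17947 genes tested (0%). Without adjustment 1 member, Fos, had an edgeR p under 0.05, against 5.53% of all genes in that direction, and its edgeR adjusted p was 0.43. DESeq2, which called 621 genes (3.46%), and limma voom, which called 0, called no member either. Differences were positive for 8 members and negative for 2, with a median of 0.48 against 0.02 over all genes. Fos alone among the 10 had every NG2-creERTM library above every Nestin-creERT2 library, as had 11.0% of all genes. Markers of other cell types also separated these models. All 8 neuron markers were lower in NG2-creERTM, with sums of 43.1 to 182 CPM against 641 to 781, and all 5 fibroblast markers higher, at 98.9 to 804.5 against 11.7 to 42.2. Of 5 pericyte and smooth muscle markers 4 were higher, with sums of 123 to 365 CPM against 61.3 to 83.7. All 7 Schwann cell markers were higher too, with sums of 217 to 1666 CPM against 8.56 to 74.3. All 6 dividing-cell markers were higher, with overlapping sums of 1369 to 1900 CPM against 885 to 1438. Of 7 astrocyte markers 6 were lower, with sums of 1165 to 3575 CPM against 4420 to 6295. None passed over all 9 libraries, and their part in the levels of the 10 genes was not tested. Without Synapsin-cre replicate 1 in the fit, Fos had an edgeR adjusted p of 0.126 and no member passed, where 0.671% of genes did.

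Against Nestin-creERT2, all 10 genes had positive differences in Synapsin-cre. Fos was higher by 2.64 (SE 0.85), with 319 ± 228 CPM in Synapsin-cre (SD, n = 3), Egr1 by 1.60 (SE 0.64) and Egr2 by 1.43 (SE 0.87). Fosb and Atf3 followed at 1.36 each (SE 0.82 and 0.76), Jun at 1.27 (SE 0.43), Junb at 1.03 (SE 0.68), and Jund, Fosl2 and Fosl1 at 0.52, 0.45 and 0.41. The median was 1.31, against 0.13 over all genes, of which 57.8% were positive. No member passed, as none of the 17947 genes did (0%), and the lowest edgeR adjusted p was 0.356, for Fos. Unadjusted, 3 members, Fos, Jun and Egr1, had a p under 0.05, where 6.74% of all genes did in that direction. DESeq2 called 506 genes (2.82%) and limma voom 0, and neither called a member, with Fos at an adjusted p of 0.0522 in DESeq2. No member had all Synapsin-cre libraries above all Nestin-creERT2 libraries (8.46% of all genes had). Synapsin-cre replicate 1 fell within the Nestin-creERT2 range or below it for each of the 10. Sums of fibroblast markers, at 119.5 to 142 CPM in Synapsin-cre, and of pericyte and smooth muscle markers, at 96.4 to 165, were above those of Nestin-creERT2 here too, and their part was not tested.

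Leaving out Synapsin-cre replicate 1 widened this contrast without bringing any member past the threshold. Fos was then higher by 3.13 (SE 0.66, edgeR adjusted p = 0.0535), with 450.1 ± 17.7 CPM (SD, n = 2). Jun followed at 1.58 (SE 0.35, edgeR adjusted p = 0.0585) and Egr1 at 2.04 (SE 0.50, edgeR adjusted p = 0.0683). Of 18481 genes 273 passed (1.48%), none of them a member. Unadjusted, 6 members had a p under 0.05 in place of 3 (9.33% of all genes did in that direction), and the median difference of the 10 was 1.60 against 0.01 over all genes. Both remaining Synapsin-cre libraries were above all Nestin-creERT2 libraries for 7 of the 10, Fos, Fosb, Jun, Jund, Egr1, Egr2 and Atf3, where 19.2% of all genes were. The 3 exceptions, Fosl1, Fosl2 and Junb, were those that stood high in Nestin-creERT2 replicate 1.

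Synapsin-cre was then set against NG2-creERTM. All 10 differences were positive in Synapsin-cre, with a median of 0.58 against 0.08 over all genes (0.87 without Synapsin-cre replicate 1), and the largest were those of Fosb (1.35, SE 0.82), Fosl1 (1.34, SE 0.87) and Fos (0.70, SE 0.80). Egr1 and Egr2 differed by 0.20 (SE 0.63) and 0.08 (SE 0.85). None passed in edgeR, DESeq2 or limma voom, no gene passed in edgeR (0%), and none of the 10 had an unadjusted p under 0.05 in edgeR, where 8.81% of all genes did in that direction. Fosl1 alone had every Synapsin-cre library above every NG2-creERTM library, as had 8.04% of all genes. Without Synapsin-cre replicate 1, 7 members did (Fos, Fosb, Fosl1, Fosl2, Jun, Junb and Jund) beside 13.5% of all genes, and again none passed, where 0.00541% of genes did. These comparisons share libraries, so they are not independent of each other.

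**Figure D3:**
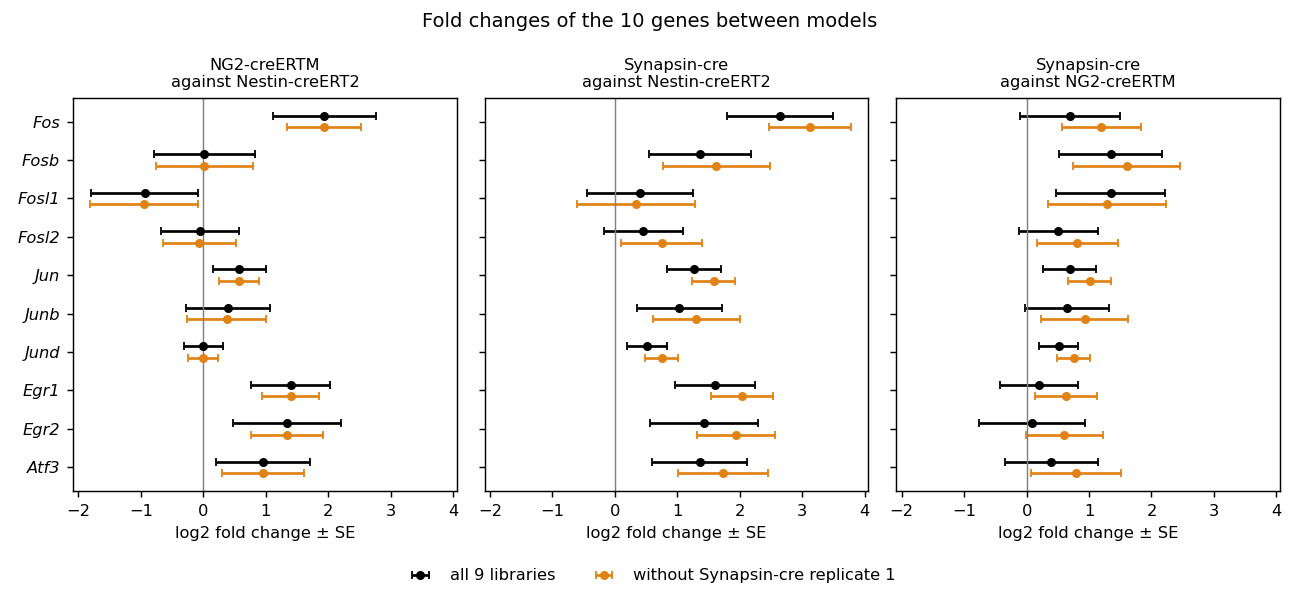
Log2 fold change ± SE (edgeR) of the 10 genes in each comparison, over all 9 libraries (black) and without Synapsin-cre replicate 1 (orange). In the middle panel all points lie to the right of 0, with Fos at 2.64 in black and 3.13 in orange, and in the left panel Jund and Fosb lie at 0.

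Asked over the 3 models at once, no member differed either: the lowest edgeR adjusted p was 0.365, for Fos, beside 0% of genes called. Without Synapsin-cre replicate 1 the lowest was 0.0733, again for Fos, with 1.87% of genes called.

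Across libraries the 10 genes varied together to unequal degrees. All 45 pairs had a positive Pearson r of log2 CPM over the 9 libraries, from 0.21 to 0.95 with a median of 0.63. After Benjamini-Hochberg adjustment of exact permutation p-values over the 45 pairs, 11 were under 0.05, and 13 without Synapsin-cre replicate 1, of which 10 were shared. The permutation treats the 9 libraries as exchangeable whatever their model. No share over pairs of other genes stands beside these counts, and genes outside the 10 came as close, such as Ahnak2 to Fos (r = 0.967). Among the 45 pairs, the closest were Junb and Atf3, with r = 0.95 (rho = 0.90, exact permutation p adjusted to 0.0088 for r and 0.0277 for rho). Fos and Jun, the partners in the classical AP-1 dimer, followed with r = 0.93 (rho = 0.88, exact permutation p adjusted to 0.0088 and 0.0277). Egr1 and Egr2 had r = 0.91 (rho = 0.90, exact permutation p adjusted to 0.0124 and 0.0277). Without the 2 libraries farthest from the first gene's median these became 0.89, 0.86 and 0.89, and as deviations from the model means they were 0.94, 0.94 and 0.92. The relation thus held between libraries of the same model. For Fos and Junb, by contrast, r = 0.86 became 0.55 without those 2 libraries, so it rests on them in part.

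By Pearson r over all 9 libraries, Fosb and Fosl1 stood furthest from the rest. Fosb had r = 0.32 with Fos (rho = 0.53, exact permutation p adjusted to 0.429 and 0.184), and Fosl1 had r = 0.21 with Egr1 (rho = 0.10, exact permutation p adjusted to 0.584 and 0.81). Without the 2 libraries farthest from its median, Fosb rose from 0.59 to 0.81 with Jun (rho = 0.78) and from 0.50 to 0.87 with Fosl2 (rho = 0.72). Its distance from Jun and Fosl2 thus rests on those 2 libraries in part. Fos and Fosb fell to 0.08 without the 2 libraries farthest from the median of Fos. The highest r of Fosl1 were with Junb (0.77), Fosl2 (0.68) and Atf3 (0.68). Jund had its highest r with Jun, at 0.71. None of these had an adjusted p under 0.05 over the 9 libraries.

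**Figure D4:**
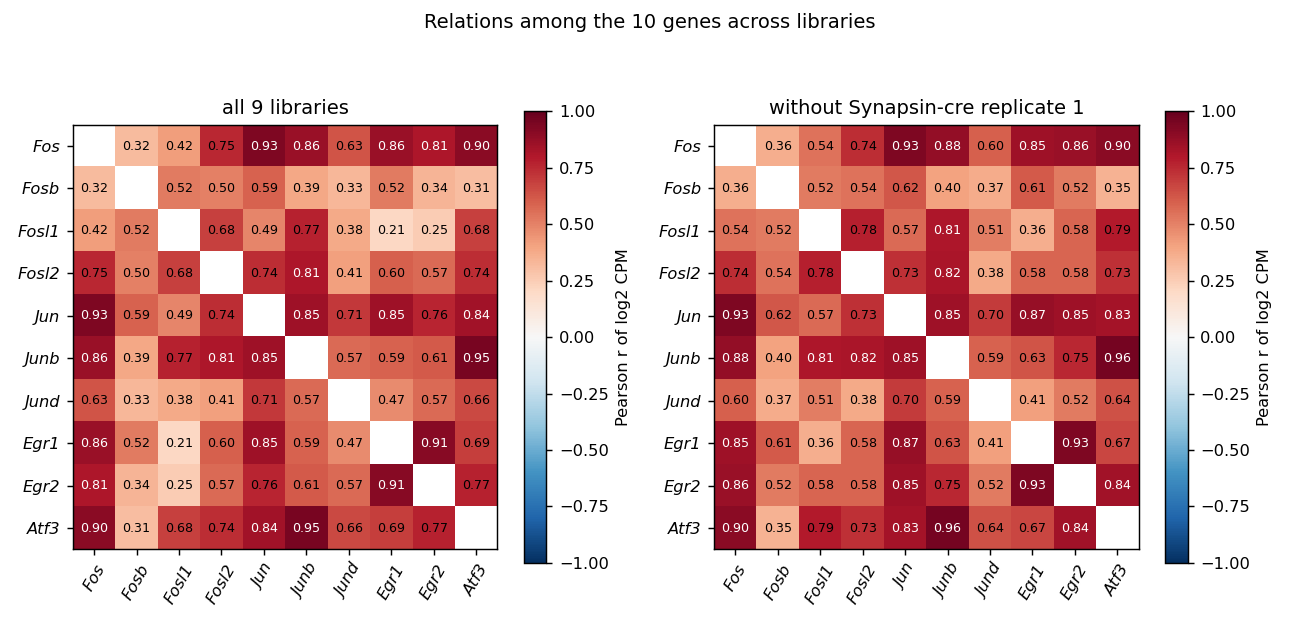
Pearson r of log2 CPM for each pair of the 10 genes over all 9 libraries (left) and without Synapsin-cre replicate 1 (right), coloured from -1 to 1. All values on the left are positive, from 0.21 for Fosl1 and Egr1 to 0.95 for Junb and Atf3.

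Among all 12789 protein-coding genes of sufficient level, those with the pattern most like each member were as follows, by Pearson r over the 9 libraries. Fos was closest to Ahnak2 (0.967), Ucp2 (0.962) and Card19 (0.954). Jun was closest to Klk8 (0.964), Tulp4 (0.959) and Tead4 (0.950), and Jund to Dcaf15 (0.978), Atp13a1 (0.970) and Cyth2 (0.962). Egr1 was closest to the transcription factor Gata6 (0.975), then Iffo2 and Specc1 (0.963 each), and Egr2 to Adamts14 (0.978), Phlda1 (0.972) and Akr1b8 (0.957). Junb and Atf3 shared Thbs1, the matrix protein thrombospondin 1, at 0.931 and 0.913. Their other neighbours were Amotl1 (0.953) and Lzts2 (0.924) for Junb and Edn1 (0.923) and the urokinase receptor Plaur (0.906) for Atf3. Fosl2 was closest to Ddb1 (0.929), Kazald1 (0.910) and Smndc1 (0.906), Fosl1 to Rrp12 (0.915), Sqstm1 (0.892) and Pqlc3 (0.891), and Fosb to Supt5 (0.906), Smcr8 (0.895) and Hmga1b (0.884). These are the highest of many values over 9 points and are given as a description.

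Other immediate-early genes were compared in lists by role. Of 16 other immediate-early transcription regulators, 12 were higher in NG2-creERTM than in Nestin-creERT2 (median 0.69) and 13 in Synapsin-cre than in Nestin-creERT2 (median 0.87). Over all genes 50.9% and 57.8% were higher in these comparisons. None of the 16 passed in edgeR, and 3 and 2 were higher at an unadjusted p under 0.05, where 5.53% and 6.74% of all genes were. Without Synapsin-cre replicate 1 such a p was found for 4 and 8 higher and 1 lower in each comparison, and again none passed. Among all genes such a p was then found for 8.11% and 9.33% higher and for 10.7% and 12.2% lower. Nr4a1, an orphan nuclear receptor, stood at 374, 153 and 257 CPM in NG2-creERTM and 54.9, 33.3 and 102 in Nestin-creERT2, a difference of 2.04 (SE 0.68, edgeR adjusted p = 0.356) with no overlap. Of all genes 11.0% were higher there with no overlap. Ier3 differed there by 1.99 (SE 0.65, edgeR adjusted p = 0.343). Klf4 and Nr4a2 had the smallest p among those higher in Synapsin-cre than in Nestin-creERT2, at 1.97 (SE 0.88) and 1.49 (SE 0.60). Maff and Ier5 differed there by -0.34 (SE 0.72) and -0.08 (SE 0.46).

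A few related genes ran apart from Fos, chosen after their values were seen. Npas4, an activity-dependent factor largely restricted to neurons, was highest at 25.8 CPM in Synapsin-cre replicate 1, where Fos was at 56.4, and at 0.303 and 0.692 in replicates 2 and 3, where Fos was at its highest. Arc, a synaptic effector, was highest in Nestin-creERT2 replicate 1, at 71.0 CPM, followed by Synapsin-cre replicate 1 at 54.0, and stood at 2.40 to 23.6 in the other 7 libraries. Egr3, a close relative of Egr1, was at 2.35 CPM in NG2-creERTM replicate 2 and 45.4 and 17.7 in the other 2 libraries of that model, so it was low in the same library as Fosb.

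Of 13 immediate-early effectors, 6 were higher in NG2-creERTM than in Nestin-creERT2 and 7 lower, and none passed in edgeR over the 9 libraries. At an unadjusted p under 0.05 in edgeR, 1 was higher and 1 lower, beside 5.53% and 5.73% of all genes. Ptgs2, the prostaglandin synthase COX-2, differed between Nestin-creERT2 and the other models in the opposite direction from Fos. It stood at 28.8, 28.5 and 20.7 CPM in Nestin-creERT2, and at 2.32 to 7.35 in the 6 libraries of the other models. It was lower in NG2-creERTM by a log2 difference of -2.52 (SE 0.56, edgeR adjusted p = 0.25) and in Synapsin-cre by -2.43 (SE 0.56, edgeR adjusted p = 0.26). In the edgeR fit of NG2-creERTM and Nestin-creERT2 alone it passed (-2.52, SE 0.46, adjusted p = 0.0485), in which 1.39% of genes did and no member. DESeq2 on all 9 libraries called it in both comparisons, at adjusted p of 0.000584 and 0.000881. Sgk1 was also lower in NG2-creERTM, at -1.12 (SE 0.57), and Trib1 and Gadd45b were higher, at 2.61 (SE 0.81) and 1.25 (SE 0.72). Trib1, a pseudokinase, was at 1043 CPM in NG2-creERTM replicate 2 and at most 223 in every other library.

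Among 14 other AP-1 and bZIP partners, 10 were higher in NG2-creERTM than in Nestin-creERT2 (median 0.50), and none passed in edgeR. At an unadjusted p under 0.05 in edgeR, 3 were higher and 1 lower, beside 5.53% and 5.73% of all genes. Ddit3, a stress-induced bZIP factor, stood at 72.1, 68.2 and 103 CPM in NG2-creERTM and 28.6 to 35.2 in Nestin-creERT2 (1.31, SE 0.33, edgeR adjusted p = 0.297; DESeq2 adjusted p = 0.0181). Atf1 was higher by 1.43 (SE 0.42) and Atf2, a partner of Jun, differed by -0.91 (SE 0.26), each with no overlap. Of all genes 11.0% were higher and 14.2% lower there with no overlap. Atf5 was lower in Synapsin-cre than in Nestin-creERT2, at -1.09 (SE 0.29, edgeR adjusted p = 0.318; DESeq2 adjusted p = 0.0242). Of 16 upstream kinases and factors, 11 were higher in NG2-creERTM and 13 in Synapsin-cre than in Nestin-creERT2, and none passed in edgeR. Over all genes 50.9% and 57.8% were higher. At an unadjusted p under 0.05 in edgeR, 1 and 3 of the 16 were higher, beside 5.53% and 6.74% of all genes. Without Synapsin-cre replicate 1, 9 of the 16 were higher in Synapsin-cre, with a median of 0.21 in place of 0.52. Rps6ka1, the kinase RSK1, was higher in both, at 1.35 (SE 0.36) and 1.11 (SE 0.36), and the p38 kinase gene Mapk14 in Synapsin-cre at 0.74 (SE 0.24). Nab1 and Nab2, corepressors that Egr proteins induce and bind, were higher in NG2-creERTM by 0.77 (SE 0.33) and 0.86 (SE 0.46).

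Genes listed as AP-1 targets were higher in NG2-creERTM for 11 of 15 (median 0.64) and in Synapsin-cre for 11 of 15 (median 0.54), both against Nestin-creERT2. Over all genes 50.9% and 57.8% were higher. None of the 15 passed in edgeR, and 1 and 3 were higher at an unadjusted p under 0.05, beside 5.53% and 6.74% of all genes. Without Synapsin-cre replicate 1 these were 3 and 4, beside 8.11% and 9.33% of all genes. The matrix metalloproteinase Mmp3 stood at 6.24, 26.2 and 4.36 CPM in Synapsin-cre and 0.0238 to 0.705 in Nestin-creERT2 (5.55, SE 1.64, edgeR adjusted p = 0.329; DESeq2 adjusted p = 0.0025). Mmp9 was at 2.30, 8.88 and 21.2 CPM in Synapsin-cre and 0.0715 to 1.50 in Nestin-creERT2 (4.01, SE 1.44, edgeR adjusted p = 0.394). In Nestin-creERT2 replicates 2 and 3, 2 and 4 of the 15 targets had 3 counts or fewer, Mmp3 in both and Mmp9 in replicate 3. The size of these differences thus rests on levels near the floor. Neither Mmp3 nor Mmp9 overlapped between those models, Synapsin-cre replicate 1 included, as was so for 8.46% of all genes in that direction. In all, DESeq2 called 6 pathway genes in NG2-creERTM against Nestin-creERT2, 5 in Synapsin-cre against Nestin-creERT2 and 0 in the remaining comparison, of 86 genes, and limma voom called 0 in each. Over all genes the shares called by DESeq2 were 3.46%, 2.82% and 2.44%.

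Nestin-creERT2 replicate 1, where Fosl1 and Fosl2 peaked, was also the highest library for 4 of the 15 AP-1 targets and 4 of 10 heat shock genes. Hmox1, the haem-degrading enzyme, stood there at 648 CPM against 54.9 to 289 in the other 8 libraries, and Spp1, the matrix protein osteopontin, at 1081 against 22.1 to 276. The heat shock genes Hspa1a and Hspb1 stood at 53.5 and 144 CPM, against at most 16.3 and 16.8 elsewhere. Other heat shock genes peaked in other libraries, such as Hspa8 in NG2-creERTM replicate 2 (1244 CPM) and Hspd1 in NG2-creERTM replicate 1 (469.5 CPM). The share of all genes highest in Nestin-creERT2 replicate 1 is not given, so the 4 and 4 stand without a background. Of the 10 heat shock genes, 3 were higher in Synapsin-cre than in Nestin-creERT2 (median -0.30) and 6 in NG2-creERTM than in Nestin-creERT2 (median 0.08). Over all genes 57.8% and 50.9% were. In replicates 2 and 3, Hspa1a was at 2.51 and 12.8 CPM in Synapsin-cre and at 1.16 and 1.14 in Nestin-creERT2. Their part in the levels of the 10 genes was not tested.

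**Figure D5:**
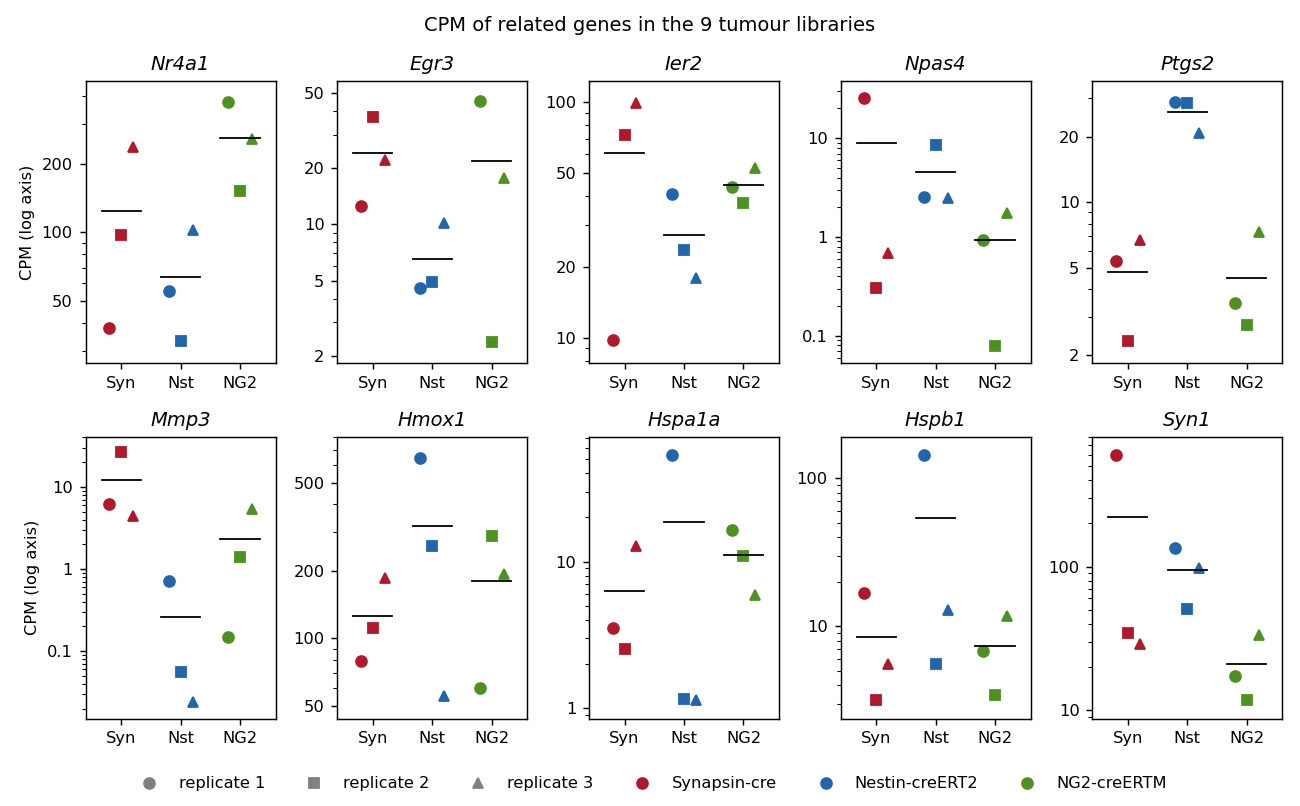
CPM (log axis, own scale for each gene) of 9 genes from the related lists and of the neuron marker Syn1, in Synapsin-cre (Syn), Nestin-creERT2 (Nst) and NG2-creERTM (NG2), with points for libraries and lines for the means of 3. Ptgs2 is at 20.7 to 28.8 in Nestin-creERT2 and 2.32 to 7.35 elsewhere, and Hspb1 and Hmox1 are each highest in Nestin-creERT2 replicate 1.

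Neighbouring transcripts limit a few of these values. Fosl1 overlaps Ccdc85b on the opposite strand, and reads on that strand made up 17.4 to 88.3% of those over Fosl1, so its level depends on the strand being kept apart. Jund overlaps the antisense transcript Gm11175, and counting without strand left 54.2 to 62.1% of its reads, because reads over both are dropped. Jun overlaps the antisense transcript Junos and kept 88.8 to 92.1% of its reads that way. For the other 7 genes, the opposite strand held at most 1.16% of reads.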

How the data were processed

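The deposited files hold whole-number read counts per gene for each of the 9 libraries counted without strand and separately by strand. Per the submitters' processing notes, the authors used STAR, HTSeq and the mm10 build, with versions and annotation release not given in the sources used here. Here the deposited counts of the strand with most reads were taken, since the other held 3.25 to 3.64%, and the 4 summary lines of each file, 17.9 to 27.3% of reads, were left out. Symbols and exon lengths came from GENCODE vM21, which matched 46005 of the 46517 identifiers. Genes passing filterByExpr (17947) were scaled by TMM and tested, 2-sided, in edgeR 4.0.16 (R 4.3.3) by a quasi-likelihood fit of the 3 models over all 9 libraries, with Benjamini-Hochberg adjustment over all genes and a threshold of 0.05. The SE is the log2 fold change over the root of its F. CPM use the same scaling, and relations use log2 CPM with a prior count of 2. The scripts were tested on simulated data.

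The 10 genes and the gene lists were chosen with earlier results of these data known. The 10 were named in every comparison, with up to 2 genes a direction by p from each of 7 pathway lists, any list gene called in a reported fit, and the 3 genes of highest r for each member. Genes described for a single library, such as Npas4, Arc, Egr3, Hmox1 and Hspa1a, were in part chosen after their values were seen. One gene of the AP-1 target list is not reported here and was left out of that list's counts. RefSeq promoter windows were used for 8 of the 10. Alternatives were other size factors, filters, DESeq2 1.42.0, limma 3.58.1 voom, unstranded counts, fits of 2 models and fits that left 1 library out. Counts of non-overlapping genes without Synapsin-cre replicate 1 were added after seeing the data.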

Additional observations from a re-analysis of the deposited data

How the results depend on the processing

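No paired analysis was possible because replicates were numbered in accession order and the numbers pair nothing. The count of members passing, 0, stayed at 0 under every alternative run, in each comparison and over the 3 models. Each member's fold change was counted once for each comparison and setting. Under other settings 250 of these kept their sign and 10 did not. In the separate set of fits that left out 1 library, 250 kept it and 20 did not. In NG2-creERTM against Nestin-creERT2, Fosb (0.01 over all libraries) became -0.032 with upper quartile factors, -0.02 with no filter and -0.44 with voom, and Jund (0.00) became -0.014, -0.039 and -0.016, and -0.001 with 2 models only. Fosl2 (-0.06) became 0.31 with voom. In Synapsin-cre against NG2-creERTM, voom gave -0.092 for Egr1 and -0.28 for Egr2. Leaving out 1 library at a time, NG2-creERTM against Nestin-creERT2 ranged from -1.04 to 0.66 for Fosb, -1.45 to 0.63 for Fosl1, -0.44 to 1.07 for Fosl2 and -0.092 to 0.143 for Jund. The 0.63 and 1.07 came without Nestin-creERT2 replicate 1, where both genes were at their highest. Fosl1 ranged from -0.11 to 1.93 in Synapsin-cre against Nestin-creERT2. In Synapsin-cre against NG2-creERTM, Egr1 ranged from -0.54 to 0.64, Egr2 from -0.77 to 0.70 and Atf3 from -0.22 to 0.79. The members with every Synapsin-cre library above numbered 0 against Nestin-creERT2 and 1 against NG2-creERTM, and 7 in each without Synapsin-cre replicate 1. Genes called over the whole table by edgeR went from 0 to 124, 273 and 1 in the 3 comparisons without that library, and DESeq2 called 621, 506 and 438. The causes were not tested. Fosl1, at 30 to 352 counts a library, has the least depth.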
